A study of Homo sapiens with 18 samples.

Results

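The mRNA of 8 keratin genes and of the keratin-associated protein gene KRTAP2-3 was followed in spheroids with and without the membrane-anchored collagenase MMP14, grown from the triple-negative breast cancer line MDA-MB-231. The 9 genes were the rows of the deposited table carrying the symbols KRT7, KRT8, KRT18, KRT19, KRT34, KRT80, KRT81, KRT86 and KRTAP2-3, of 62710 genes in all, and all 9 passed the filter on low counts. KRTAP2-3 was selected on measured values, its large rise in collagen, so its collagen response is described here with no test, and KRT34 passed the filter only through its collagen groups. The 18 RNA libraries form 6 groups of 3, 1 for each of the genotypes MMP14-KO and Wildtype in each of 3 conditions, which were the hanging droplet in which spheroids had formed over 5 days, 24 h in a collagen hydrogel and 48 h in the hydrogel. All groups share the cell line and the droplet stage, with 2000 cells per spheroid and 100000 cells per sample. Collagenase (2 mg/ml, 37 °C) freed the embedded spheroids and was not used on droplets, so digestion and embedding cannot be told apart. No droplet group had a further 24 h or 48 h, so added culture time cannot be told apart from embedding either. Whether the MMP14-KO line is 1 clone or a pool, and whether the replicates are separate cultures, is not given in the sources used here, so p-values measure the spread between these libraries, which may be technical.

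Keratins are the intermediate filament proteins of epithelia, and a filament forms only when a type I keratin pairs with a type II keratin. KRT8 with KRT18 is the basic pair of simple epithelium, to which KRT7 (type II) and KRT19 (type I) are added in glandular tissue such as the breast. KRT81 and KRT86 (type II) and KRT34 (type I) are keratins of the hair cortex, where keratin-associated proteins such as KRTAP2-3 are thought to crosslink the filaments through disulfide bonds. KRT80 is a type II keratin of epithelia that has been placed near desmosomes and the cell margin.

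Counts per library ranged from 19819401 to 33352163, and libraries of 1 group correlated at 0.993 to 0.996 across genes. MMP14 stood at 138 to 165.5 CPM (reads per 1e6 reads, scaled by TMM, which sets the libraries level on the bulk of their genes) in MMP14-KO libraries and at 1283 to 2248 CPM in Wildtype libraries, in accord with the labels. The libraries carried the mesenchymal-like profile of the line, with VIM at 1930 to 3830 CPM. Luminal markers were mixed. CDH1 stayed at 0.136 to 0.781 CPM, while ERBB2 stood at 65.1 to 78.7, CLDN4 at 46.3 to 93.3 and CLDN7 at 41.9 to 87.7 CPM. GATA3 stood at 6.73 to 10.6 and EPCAM at 3.8 to 10.4 CPM. The basal keratin KRT5 had 3 reads in all 18 libraries. Other basal markers were present, with COL17A1 at 9.82 to 16.8 and TP63 at 1.1 to 6.54 CPM. All 6 mesenchymal-like markers were above 1 CPM, and their summed level was 6740 to 6820 CPM in MMP14-KO and 6600 to 7050 CPM in Wildtype spheroids at 24 h, against 4630 to 5190 CPM in MMP14-KO droplets and 4310 to 4710 CPM in Wildtype droplets. The summed level of 7 leukocyte markers, 4 of them without a read, was 17.3 to 19.4 CPM in MMP14-KO and 11.6 to 18.2 CPM in Wildtype spheroids at 24 h, against 36.6 to 44.1 CPM in MMP14-KO droplets and 30.3 to 34.4 CPM in Wildtype droplets. The 10 luminal markers, 5 of them above 1 CPM, summed to 219 to 252 CPM in MMP14-KO and 200 to 228 CPM in Wildtype spheroids at 24 h, against 194 to 202 CPM in MMP14-KO droplets and 209 to 232 CPM in Wildtype droplets. Summed basal markers (9 genes) were 43.1 to 46 CPM in MMP14-KO and 46.5 to 49.3 CPM in Wildtype spheroids at 24 h, against 52 to 54.6 CPM in MMP14-KO droplets and 51.3 to 56.2 CPM in Wildtype droplets, and KRT10 makes up most of these sums. At 48 h the basal sum was 47.8 to 57.3 CPM in MMP14-KO and 51.7 to 55.2 CPM in Wildtype spheroids, which overlaps the droplet range. Summed fibroblast markers (7 genes) ranged from 33.8 to 59.6 CPM over all libraries, and their course differed by genotype. For MMP14-KO the droplet libraries had the lowest sums, 33.8 to 40.2 CPM. The MMP14-KO collagen libraries lay above these, at 56.3 to 59.6 CPM (24 h) and 44.3 to 54.1 CPM (48 h). For Wildtype the droplet range of 47.2 to 59.4 CPM overlapped the 24 h range of 43.6 to 52.4 CPM. The Wildtype range at 48 h lay lower, at 37.4 to 38.5 CPM. The 5 endothelial markers summed to 26.3 to 31.5 CPM in MMP14-KO and 17.3 to 27.7 CPM in Wildtype spheroids at 24 h, against 41.4 to 41.8 CPM in MMP14-KO droplets and 33.5 to 36.4 CPM in Wildtype droplets. At 48 h the mesenchymal-like sum was 6840 to 7130 CPM in MMP14-KO and 7010 to 7370 CPM in Wildtype spheroids, and the leukocyte sum 15.1 to 19.2 CPM in MMP14-KO and 10.1 to 12.2 CPM in Wildtype. The luminal sum at that time was 227 to 252 CPM in MMP14-KO and 219 to 248 CPM in Wildtype, and the endothelial sum 25.8 to 35.7 CPM in MMP14-KO and 16.7 to 20.8 CPM in Wildtype. The part of these shifts in the keratin results was not tested. In bulk RNA, fewer cells expressing a gene and less RNA per cell cannot be told apart.

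KRTAP2-3 is a gene of 1 exon on the minus strand of chromosome 17 (GRCh38, 41059240 to 41060114) inside the cluster of keratin-associated protein genes. Its near copies lie beside it, and its transcript matched that of KRTAP2-4 at 99.5% of 428 aligned bases, KRTAP2-1 at 98.9% of 446 and KRTAP2-2 at 95.7% of 416. The promoters of KRTAP2-3, of its copy KRTAP2-4 and of KRT34, the hair keratin that lies in the neighbouring keratin cluster, are shown because KRTAP2-3 and KRT34 were both higher in collagen while KRTAP2-4 had no read in any library. Each runs from 250 bases before to 50 bases after the RefSeq start site (GRCh38.p14, minus strand), at chr17:41060065-41060364, chr17:41065830-41066129 and chr17:41382257-41382556, with the letters TATAAA in capitals.
KRTAP2-3: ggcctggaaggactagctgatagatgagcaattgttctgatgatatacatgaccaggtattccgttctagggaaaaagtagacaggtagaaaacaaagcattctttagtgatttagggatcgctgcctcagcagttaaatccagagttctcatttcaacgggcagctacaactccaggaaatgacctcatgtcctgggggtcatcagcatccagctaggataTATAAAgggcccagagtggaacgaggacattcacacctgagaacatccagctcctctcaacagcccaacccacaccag
KRTAP2-4: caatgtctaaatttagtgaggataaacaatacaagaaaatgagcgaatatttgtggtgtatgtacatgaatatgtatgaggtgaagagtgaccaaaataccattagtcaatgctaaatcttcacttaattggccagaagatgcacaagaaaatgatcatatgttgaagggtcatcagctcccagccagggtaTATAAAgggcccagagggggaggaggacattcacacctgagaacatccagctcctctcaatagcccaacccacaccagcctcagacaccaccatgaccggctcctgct
KRT34: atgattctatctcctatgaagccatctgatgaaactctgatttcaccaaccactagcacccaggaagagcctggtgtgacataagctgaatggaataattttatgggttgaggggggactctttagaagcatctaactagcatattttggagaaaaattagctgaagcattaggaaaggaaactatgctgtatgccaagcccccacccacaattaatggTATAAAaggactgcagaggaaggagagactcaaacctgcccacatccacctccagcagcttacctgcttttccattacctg
The TATAAA match starts at position -28 in KRTAP2-3, -58 in KRTAP2-4 and -31 in KRT34, counted from the RefSeq start site. The bases after TATAAA run alike in KRTAP2-3 and KRTAP2-4, and the KRTAP2-4 window goes on past the end of the KRTAP2-3 window. Their positions therefore differ by where RefSeq sets the start site. On the sense strand, 7.33% of 35116 RefSeq promoters of this length hold it. The promoters of KRTAP2-3 and KRTAP2-4 matched at 87.3% of 126 aligned bases, in the stretch around TATAAA. Neither TGACTCA (AP-1), which 4.95% of promoters hold on either strand, nor GGAATG (TEAD), which 14% hold, was found in any of these windows, which says only that those letters are absent there.

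KRTAP2-3 was close to silent in droplets and present in every collagen library. In droplets it had 2, 11 and 10 reads in the MMP14-KO libraries and 10, 3 and 6 reads in the Wildtype libraries, which is 0.268 ± 0.165 CPM in MMP14-KO and 0.267 ± 0.183 CPM in Wildtype (SD, n = 3 each). At 24 h it stood at 9.73, 9.65 and 10.4 CPM in MMP14-KO spheroids and at 14.4, 13.9 and 19.1 CPM in Wildtype spheroids. At 48 h the MMP14-KO libraries held 8.31, 8.12 and 8.22 CPM and the Wildtype libraries 14.8, 15.03 and 20.15 CPM. Every collagen library lay above every droplet library, and at both times every MMP14-KO library lay below every Wildtype library. The log2 fold change from droplets was 5.14 at 24 h and 4.87 at 48 h in MMP14-KO spheroids, and 5.96 and 6.02 in Wildtype spheroids, given without a test because the gene was picked for it. These values rest on few droplet reads, and leaving out 1 library at a time moved them between 4.47 and 5.46 in MMP14-KO and between 5.55 and 6.61 in Wildtype spheroids, with the Wildtype extremes without droplet replicates 1 and 2 and the MMP14-KO extremes without droplet replicates 1 and 2.

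The genotype comparisons within a condition use the libraries in which that rise was seen, so they are not free of the choice of KRTAP2-3. KRTAP2-3 was lower in MMP14-KO than in Wildtype spheroids by 0.68 on the log2 scale at 24 h (log2 fold change -0.68, SE 0.158, edgeR quasi-likelihood test, adjusted p = 0.00296), which is 62.5% of the Wildtype level. At 48 h the log2 fold change was -1.02 (SE 0.162, adjusted p = 0.000118), or 49.4% of the Wildtype level. In droplets the difference was 0.14 with a 95% interval from -1.004 to 1.28 (adjusted p = 0.908), an interval that holds the 24 h value. The genotype difference in the collagen response, given as a description, was -0.82 at 24 h and -1.15 at 48 h. It ranged from -1.76 to -0.42 as single libraries were left out, with the ends reached without Wildtype droplet replicates 1 and 2. The second day in collagen left KRTAP2-3 without a called change (log2 fold change -0.27, adjusted p = 0.438, in MMP14-KO and 0.07, adjusted p = 0.827, in Wildtype).

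No other keratin-associated protein gene was expressed to a comparable level. Of the 93 others in the table, 74 had no read, none passed the filter, and the 19 with reads summed to 70 reads over all 18 libraries, against 3840 reads for KRTAP2-3. KRTAP2-1 and KRTAP2-4 had no read and KRTAP2-2 had 1, although 29.4% of the 151-base stretches of the KRTAP2-3 transcript (213 of 725) are also found in those copies. With the family added into 1 row, the KRTAP2-3 genotype calls at 24 h and 48 h kept their direction and passed. KRTAP1-5 had 1 read, and the hair keratins KRT31, KRT33A, KRT35 and KRT85 had none.

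**Figure D1:**
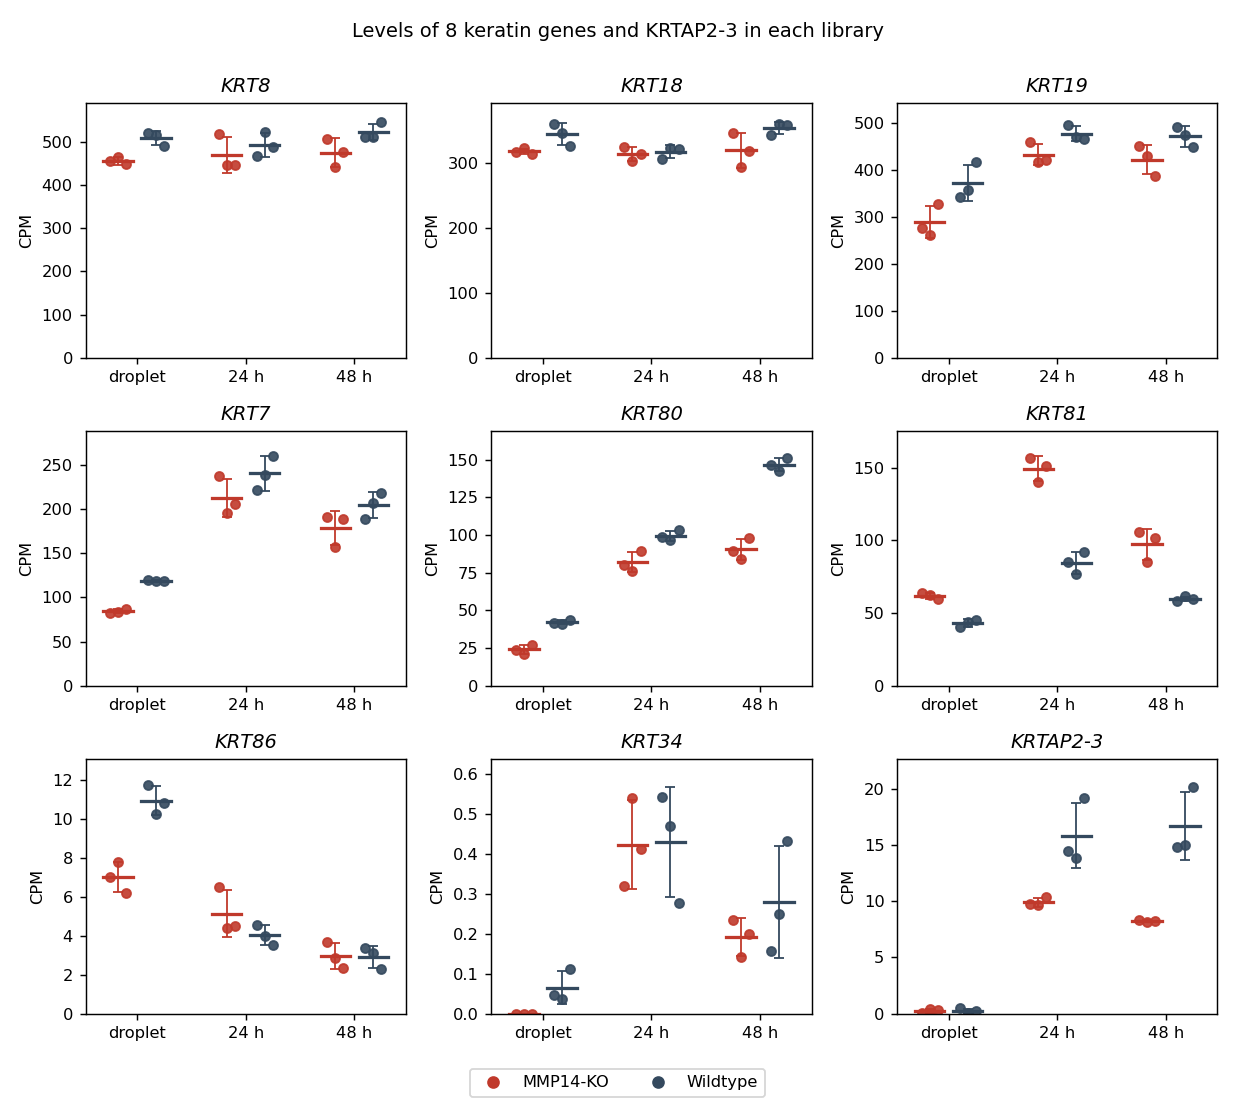
Level of each gene in every library (points, CPM on linear axes starting at 0) in droplets, at 24 h and at 48 h in collagen, with the group mean (line) and SD (bar, n = 3), MMP14-KO left of Wildtype. KRTAP2-3 lies under 0.5 CPM in all droplet libraries and between 8.12 and 20.15 CPM in all collagen libraries.

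Between genotypes, 6 of the 9 genes were called in droplets at a Benjamini-Hochberg adjusted p under 0.05 (1 higher, 5 lower in MMP14-KO), where 17.4% of all 17030 tested genes were called, 7.70% higher and 9.70% lower. The 6 include KRT34, which had no read in MMP14-KO droplets, and 5 were called whenever any 1 droplet library was left out. At 24 h 3 of 9 were called (1 higher, 2 lower) against 29.4% of all genes, 13.7% higher and 15.7% lower. At 48 h 4 of 9 were called (1 higher, 3 lower) against 29.5% of all genes, 14.4% higher and 15.1% lower. KRTAP2-3, picked for its rise in collagen, is among the lower calls at both times. Of the calls over all genes 46.5% were higher at 24 h and 48.9% at 48 h, and with library size alone as the scaling these shares were 61.9% and 64.3%. The median log2 fold change of the 9 was -0.37, -0.07 and -0.16 in those conditions, against medians of -0.001, 0.005 and 0.001 over all genes.

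**Figure D2:**
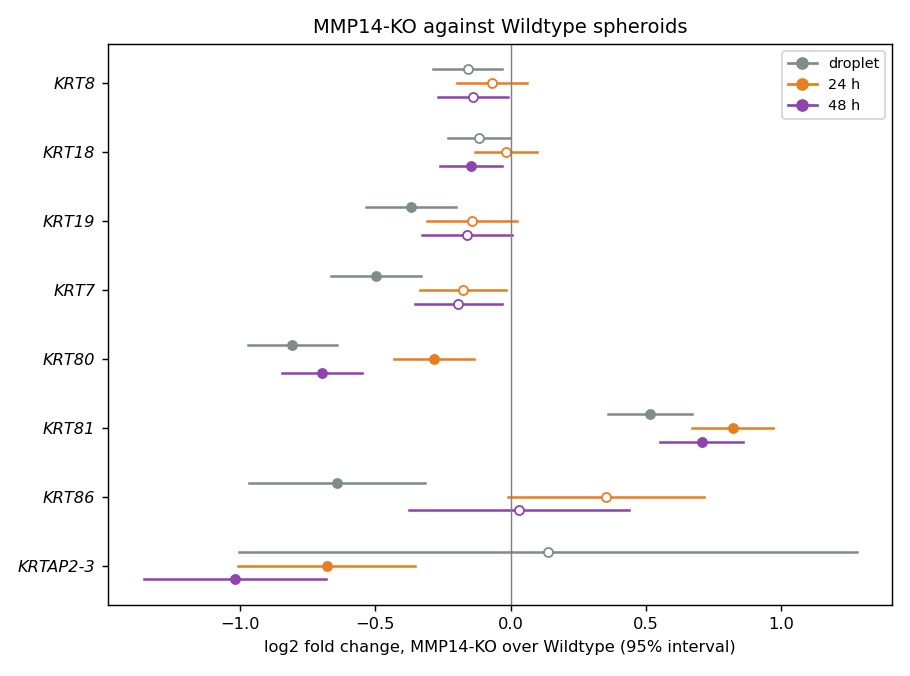
Log2 fold change of MMP14-KO over Wildtype spheroids with its 95% interval in droplets, at 24 h and at 48 h; filled points passed an adjusted p under 0.05. KRT81 lies right of 0 and KRT80 left of 0 in all 3 conditions, and KRT34 is not drawn because MMP14-KO droplets had no read.

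In collagen the 7 genes other than KRTAP2-3 and KRT34 moved as follows. KRT34 is left out of these counts because it passed the filter only where it is high, in collagen. In MMP14-KO spheroids 5 of 7 were called at 24 h (4 higher, 1 lower), against 51.1% of all genes (25.5% higher, 25.7% lower), and 5 of 7 at 48 h (4 higher, 1 lower), against 49.4% (25.8% higher, 23.6% lower). In Wildtype spheroids 5 of 7 were called at each time (4 higher, 1 lower), against 56.5% of all genes at 24 h (27.8% higher, 28.7% lower) and 55.2% at 48 h (27.7% higher, 27.5% lower). KRT7, KRT19, KRT80 and KRT81 rose and KRT86 fell in all 4 of these comparisons, while KRT8 and KRT18 passed in none. The comparisons of 1 genotype share their droplet libraries. The medians of the 7 were 0.58 and 0.55 in MMP14-KO spheroids and 0.36 and 0.34 in Wildtype spheroids at 24 h and 48 h, against -0.004 to 0.021 over all genes.

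**Figure D3:**
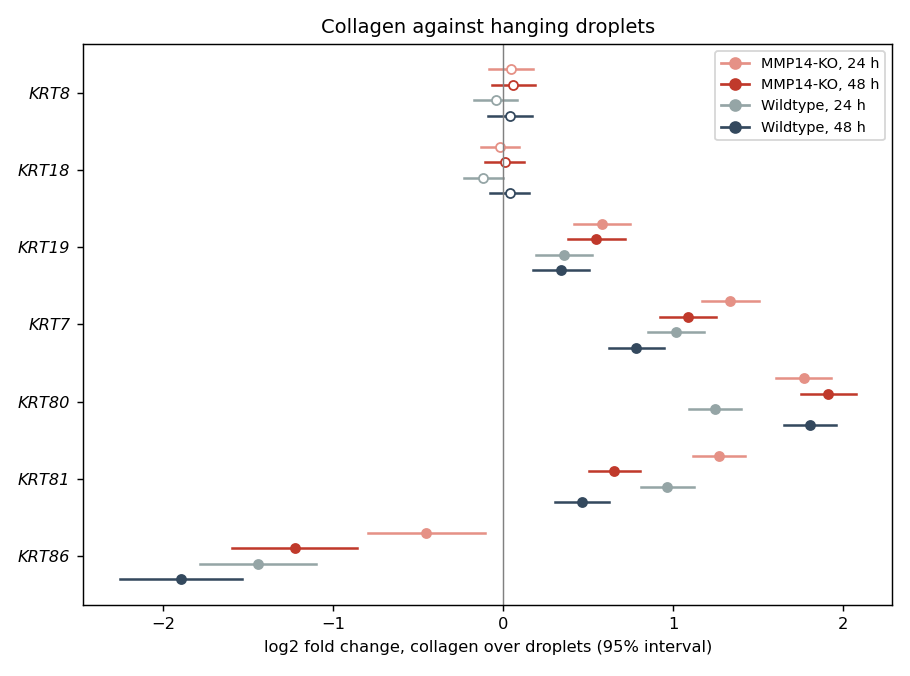
Log2 fold change of collagen over droplets with its 95% interval, by genotype and time; filled points passed an adjusted p under 0.05. KRT8 and KRT18 lie near 0, KRT19, KRT7, KRT80 and KRT81 lie right of 0 and KRT86 left of it.

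The basic pair, KRT8 and KRT18, kept to a narrow range. KRT8 ranged from 441 to 546 CPM over the 18 libraries and KRT18 from 293 to 359.9 CPM. In droplets the MMP14-KO libraries held 455, 465 and 448 CPM of KRT8 and the Wildtype libraries 522, 515 and 491 CPM. These do not overlap, but the difference did not pass (log2 fold change -0.16, 95% interval -0.29 to -0.03, adjusted p = 0.0823). KRT18 at 48 h was the 1 call of the pair, at 346, 293 and 319 CPM in MMP14-KO and 343, 359.9 and 358 CPM in Wildtype spheroids. Those groups overlap, and the log2 fold change of -0.15 (SE 0.055, adjusted p = 0.0481) lost its call in 6 of 14 other settings, up to an adjusted p of 0.211 without MMP14-KO 48 h replicate 2; it was also lost without Wildtype 48 h replicates 2 or 3 and without MMP14-KO 48 h replicate 3. Comparisons of the pair that were not called passed in a few other settings. KRT18 in Wildtype spheroids at 24 h against droplets (-0.12, edgeR adjusted p = 0.0696) passed in 3 of 14, down to 0.0296 with library size alone. KRT18 in Wildtype spheroids at 48 h against 24 h passed in 1 of 14. KRT8 between genotypes passed in 1 of 14 in droplets and in 1 of 14 at 48 h. Per kb of transcript, KRT8 over KRT18 stayed between 1.056 and 1.144 in the 6 group means. Over the 18 libraries log2 CPM of the pair correlated at 0.840, a description of points that share group and library. KRT8 and KRT18 lie side by side on chromosome 12 on opposite strands with 525 exon bases in common. Whether the counting used strand is not given in the sources used here, so reads there cannot be told apart.

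KRT19 and KRT7, the keratins added to the basic pair in glandular epithelium, rose in collagen. KRT7 had 82.1, 83.8 and 87.1 CPM in MMP14-KO droplets and 119.9, 119 and 118 CPM in Wildtype droplets. At 24 h it had 237, 196 and 206 CPM in MMP14-KO and 222, 239 and 260.5 CPM in Wildtype spheroids. At 48 h the values were 191, 157 and 189 CPM in MMP14-KO and 188, 207 and 218 CPM in Wildtype spheroids. The droplet groups stand apart and the collagen groups overlap between genotypes. The log2 fold change of MMP14-KO over Wildtype was -0.50 in droplets (SE 0.0796, adjusted p = 0.000157), -0.18 at 24 h (adjusted p = 0.0958) and -0.19 at 48 h (adjusted p = 0.0683). The rise at 24 h was 1.34 in MMP14-KO (adjusted p = 4.99e-11) and 1.02 in Wildtype spheroids (adjusted p = 1.09e-09). Their difference of 0.32 did not pass (95% interval 0.09 to 0.55, adjusted p = 0.0804). It passed in 3 of 20 other settings. The adjusted p was 0.0447 by DESeq2, 0.0335 by edgeR with only the groups compared and 0.00782 by edgeR with no filter on low counts. The -0.18 of MMP14-KO over Wildtype within 24 h also passed in other settings. Its adjusted p values were 0.0205 without MMP14-KO 24 h replicate 1 and 0.0422 without Wildtype 24 h replicate 1. The -0.19 of MMP14-KO over Wildtype within 48 h passed without MMP14-KO 48 h replicate 3 (adjusted p = 0.0434) and without Wildtype 48 h replicate 1 (adjusted p = 0.0309).

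KRT19 stood at 277, 262 and 328 CPM in MMP14-KO droplets and 344, 359 and 416 CPM in Wildtype droplets, without overlap (log2 fold change -0.37, SE 0.0798, adjusted p = 0.00266). In collagen the difference did not pass. At 24 h the libraries held 459, 418 and 421 CPM in MMP14-KO and 495, 472 and 467 CPM in Wildtype with no overlap (log2 fold change -0.14, adjusted p = 0.193). At 48 h they held 451, 429 and 388 CPM in MMP14-KO and 493, 476 and 449 CPM in Wildtype, which overlap (log2 fold change -0.16, adjusted p = 0.139). KRT19 rose in collagen by 0.58 at 24 h (adjusted p = 4.54e-06) in MMP14-KO and by 0.36 (adjusted p = 0.000674) in Wildtype spheroids. Whether those rises differ was not called, with a difference of 0.22 (95% interval -0.01 to 0.46).

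KRT80, the desmosome-associated keratin, was lower in MMP14-KO spheroids in every condition and rose several-fold in collagen. In droplets it had 23.7, 21.2 and 27.2 CPM in MMP14-KO and 41.9, 40.8 and 43.4 CPM in Wildtype spheroids. At 24 h it had 80.1, 76.3 and 89.1 CPM in MMP14-KO and 98.4, 97.0 and 103 CPM in Wildtype spheroids, and at 48 h 89.2, 84.3 and 98.2 CPM in MMP14-KO against 147, 142 and 151 CPM in Wildtype. No MMP14-KO library reached a Wildtype library of its condition. The log2 fold change of MMP14-KO over Wildtype was -0.80 in droplets (SE 0.0785, adjusted p = 1.77e-07), -0.28 at 24 h (SE 0.0714, adjusted p = 0.00472) and -0.70 at 48 h (SE 0.0712, adjusted p = 3.46e-07). At 24 h KRT80 rose over the droplet level by 1.77 in MMP14-KO (adjusted p = 1.16e-13) and by 1.25 in Wildtype spheroids (adjusted p = 6.92e-12), and the test of that difference gave 0.52 (SE 0.106, adjusted p = 0.00748). At 24 h 2 of the 7 genes other than KRTAP2-3 and KRT34 passed this interaction test, against 7.41% of all genes. At 48 h 0 of these 7 passed by edgeR, against 6.79% of all genes. By DESeq2 0 of the 7 with an adjusted p passed. KRT7 and KRT86 had an unadjusted edgeR p under 0.05 at 48 h. KRT7 passed the adjusted threshold in the edgeR fit with no filter on low counts (adjusted p = 0.0256). KRT80 then differed by 0.11 (95% interval -0.11 to 0.33, adjusted p = 0.574). In the second day in collagen KRT80 rose by 0.56 in Wildtype spheroids (SE 0.0705, adjusted p = 1.41e-05), and the change in MMP14-KO spheroids was 0.15 (95% interval -0.004 to 0.295, adjusted p = 0.301). Between 24 h and 48 h 2 of 9 genes were called in each genotype, against 3.81% of all genes in MMP14-KO and 13.2% in Wildtype spheroids.

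Of the type II hair keratins, KRT81 ran opposite to KRT80 between the genotypes. In droplets KRT81 had 63.4, 62.7 and 59.7 CPM in MMP14-KO and 40.2, 44.1 and 45.5 CPM in Wildtype spheroids. At 24 h it had 157, 140.0 and 151 CPM in MMP14-KO and 85, 76.9 and 91.6 CPM in Wildtype spheroids, and at 48 h 105, 85.2 and 101 CPM in MMP14-KO against 58.4, 61.4 and 59.4 CPM in Wildtype. Every MMP14-KO library lay above every Wildtype library of its condition, and both genotypes were highest at 24 h. The log2 fold change of MMP14-KO over Wildtype was 0.51 in droplets (SE 0.0754, adjusted p = 3.87e-05), 0.82 at 24 h (SE 0.0719, adjusted p = 4.13e-08) and 0.71 at 48 h (SE 0.0739, adjusted p = 5.27e-07). From 24 h to 48 h KRT81 fell by 0.62 in MMP14-KO (adjusted p = 1.16e-05) and by 0.50 in Wildtype spheroids (adjusted p = 8.85e-05).

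KRT86 had a low level and the reverse course. In droplets it had 7.01, 7.76 and 6.21 CPM in MMP14-KO and 11.7, 10.2 and 10.8 CPM in Wildtype spheroids (log2 fold change -0.64, SE 0.157, adjusted p = 0.00598). At 24 h it had 6.50, 4.38 and 4.50 CPM in MMP14-KO and 4.55, 3.99 and 3.53 CPM in Wildtype spheroids, and at 48 h 3.67, 2.86 and 2.33 CPM in MMP14-KO against 3.36, 3.09 and 2.29 CPM in Wildtype. The genotypes overlap in collagen. In Wildtype spheroids the collagen change was -1.45 at 24 h (SE 0.165, adjusted p = 1.37e-07) and -1.90 at 48 h (adjusted p = 5.82e-09). In MMP14-KO spheroids it was -0.45 at 24 h (adjusted p = 0.0265), where the groups overlap, and -1.23 at 48 h (adjusted p = 6.4e-06). The 24 h call in MMP14-KO was lost without MMP14-KO droplet replicates 1 or 2 and without MMP14-KO 24 h replicates 2 or 3, up to an adjusted p of 0.125. The genotype difference in the 24 h response was 0.99 (SE 0.234, adjusted p = 0.0151), and the adjusted p was 0.0569 without MMP14-KO 24 h replicate 1 and 0.0567 without Wildtype 24 h replicate 3. From 24 h to 48 h KRT86 fell by 0.77 in MMP14-KO (adjusted p = 0.0187), a call lost without MMP14-KO 24 h replicate 1 (adjusted p = 0.121) or 48 h replicate 3 (adjusted p = 0.0924).

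KRT81 and KRT86 cannot be fully told apart by these counts. Their transcripts match at 94.6% of 1404 aligned bases, 455 of the 151-base stretches are identical, which is 25.6% of those of KRT81 and 22.0% of those of KRT86, and KRT81 lies within the span of KRT86 on the opposite strand of chromosome 12 with no exon base in common. In the reads as the authors counted them, KRT81 had 8.91 ± 0.775 reads per KRT86 read in MMP14-KO and 3.99 ± 0.484 in Wildtype droplets (SD, n = 3 each). At 24 h the ratio was 29.9 ± 5.04 in MMP14-KO and 21.3 ± 4.04 in Wildtype spheroids, and at 48 h 34.0 ± 8.29 in MMP14-KO and 21.1 ± 4.44 in Wildtype spheroids. In both genotypes every collagen library had a higher ratio than every droplet library. With the counts of both genes added, the genotype difference was 0.35 in droplets (adjusted p = 0.00151), 0.80 at 24 h (adjusted p = 3.35e-08) and 0.68 at 48 h (adjusted p = 5.25e-07). The sum's collagen response differed between genotypes, by 0.46 at 24 h (adjusted p = 0.0102) and narrowly by 0.33 at 48 h (adjusted p = 0.049). KRT81 alone did not pass this edgeR test, with 0.30 at 24 h (adjusted p = 0.0741) and 0.19 at 48 h (adjusted p = 0.276). KRT86 alone passed at 24 h and not at 48 h (0.67, adjusted p = 0.102).

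**Figure D4:**
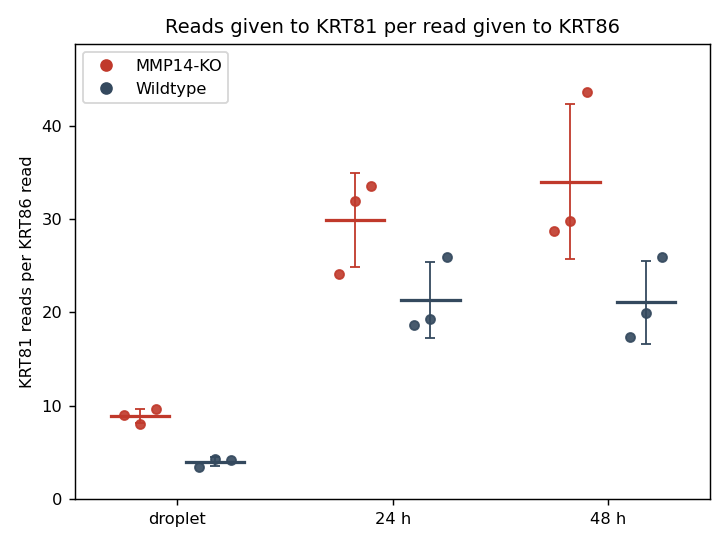
Reads given to KRT81 per read given to KRT86 in each library (points) with the group mean (line) and SD (bar, n = 3), MMP14-KO left of Wildtype. The ratio lies at 3.43 to 9.61 in droplets and at 17.3 to 43.6 in collagen.

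KRT34, the type I hair keratin, stayed under 1 CPM everywhere. It had no read in the 3 MMP14-KO droplet libraries and 1, 1 and 3 reads in the Wildtype droplet libraries. At 24 h it had 7, 14 and 10 reads in MMP14-KO and 13, 12 and 9 in Wildtype spheroids, and at 48 h 6, 3 and 4 reads in MMP14-KO and 4, 6 and 10 in Wildtype spheroids. Every collagen library had at least 3 reads. Against a floor of 3 reads over the group, MMP14-KO spheroids were at least 11.7-fold higher at 24 h and at least 5.29-fold higher at 48 h than MMP14-KO droplets. In Wildtype spheroids the log2 fold change over droplets was 2.59 at 24 h and 1.99 at 48 h. These are given with no test, since no droplet library reached the filter's 0.397 CPM and only collagen libraries brought KRT34 into the fit. The droplet difference between genotypes passed narrowly (adjusted p = 0.0483) with no read in MMP14-KO, and it was lost in 9 of 13 other settings (up to an adjusted p of 0.165), among them without any 1 of the 6 droplet libraries.

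Summed per kb of transcript, the 8 keratin mRNAs came to 715.5 ± 20.1 CPM per kb in MMP14-KO and 834 ± 10.5 CPM per kb in Wildtype droplets (SD, n = 3 each). In collagen the sums were 956 ± 58.4 CPM per kb in MMP14-KO and 988 ± 14.7 CPM per kb in Wildtype spheroids at 24 h, and 909 ± 57.3 in MMP14-KO and 999.5 ± 6.64 CPM per kb in Wildtype spheroids at 48 h. No droplet library reached a collagen library. KRT19 was the most abundant per kb in every collagen group, with 32.6% of the sum in MMP14-KO and 34.8% in Wildtype spheroids at 24 h, while KRT8 held 23.1% in MMP14-KO and 23.5% in Wildtype. In droplets KRT8 held 30.0% in MMP14-KO and 28.7% in Wildtype, and KRT19 held 29% in MMP14-KO and 32.1% in Wildtype. KRT81 took 8.10% of the sum in MMP14-KO and 4.44% in Wildtype spheroids at 24 h. The ratio of type II to type I keratins was 0.741 ± 0.0472 in MMP14-KO and 0.708 ± 0.038 in Wildtype droplets, and 0.865 ± 0.0312 in MMP14-KO and 0.806 ± 0.0428 in Wildtype spheroids at 24 h. KRTAP2-3 reached 11.3 CPM per kb in MMP14-KO and 18.1 CPM per kb in Wildtype spheroids at 24 h.

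**Figure D5:**
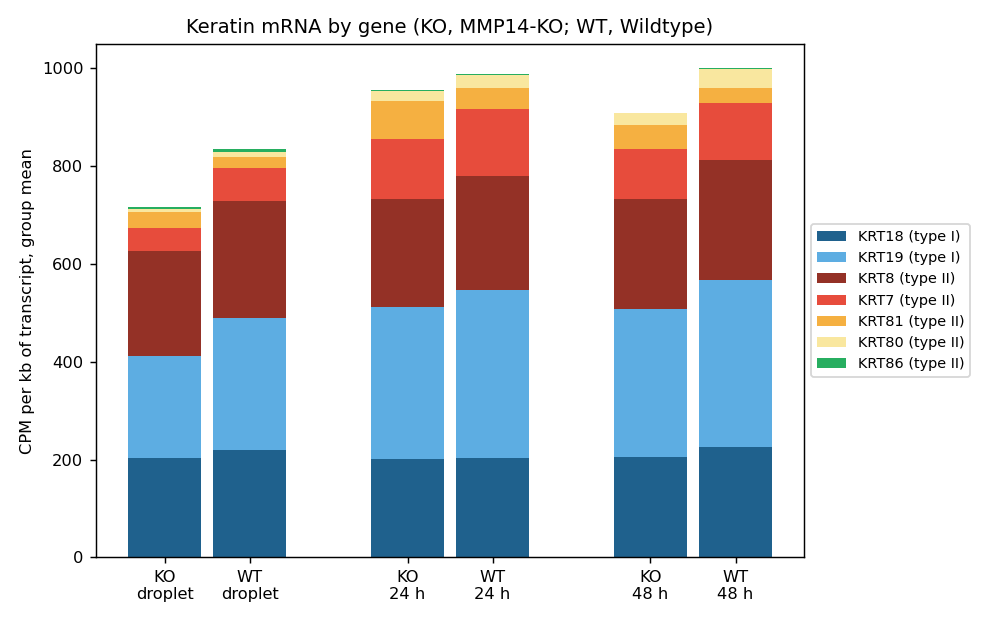
Group means of keratin mRNA in CPM per kb of transcript, stacked by gene (KRT34, under 0.25, is too small to draw), with the vertical axis starting at 0 and MMP14-KO left of Wildtype in each condition. The stacks are lowest in MMP14-KO droplets (715.5) and highest in Wildtype spheroids at 48 h (999.5).

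The other keratins were mostly off. Among 47 further keratin genes, 20 had no read and 7 were tested. KRT3 is left out of the counts because it passed the filter only through MMP14-KO libraries, where it is high. Of the others, 1 (KRT79) was higher and 0 were lower in MMP14-KO in each condition. Over all genes 7.70% were higher and 9.70% lower in droplets, 13.7% and 15.7% at 24 h, and 14.4% and 15.1% at 48 h. KRT79, a skin appendage keratin, was 2.17 ± 0.702 CPM in MMP14-KO and 0.406 ± 0.072 CPM in Wildtype droplets (SD, n = 3 each; log2 fold change 2.40, adjusted p = 6.82e-06), with 1.75 at 24 h and 2.58 at 48 h. KRT3, a corneal keratin, was 1.43 ± 0.182 CPM in MMP14-KO and 0.125 ± 0.0693 CPM in Wildtype droplets, given with no test. KRT17, a stress and basal keratin, stood at 0.223 CPM at 24 h in MMP14-KO spheroids against 1.58 CPM in MMP14-KO droplets, and at 0.332 CPM at 24 h in Wildtype spheroids against 1.54 CPM in Wildtype droplets. It was carried past the filter by its 6 droplet libraries, with 1 of 12 collagen libraries at the needed level, so its difference is given with no test.

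Other genes of the keratin cytoskeleton moved in both directions. Of 18 other intermediate filament genes 11 were tested, and at 24 h in collagen 4 rose and 2 fell in MMP14-KO spheroids and 3 rose and 5 fell in Wildtype spheroids. Over all genes 25.5% rose and 25.7% fell in MMP14-KO and 27.8% rose and 28.7% fell in Wildtype spheroids in those comparisons. VIM, the mesenchymal intermediate filament, rose by 0.55 at 24 h (adjusted p = 1.49e-07) in MMP14-KO spheroids. At 48 h VIM was higher than in droplets by 0.60 in MMP14-KO (edgeR adjusted p = 4.36e-08) and by 0.72 in Wildtype spheroids (adjusted p = 1.64e-09). LMNB2, a nuclear lamin, was lower in MMP14-KO at 24 h (152 CPM, against 274 CPM in Wildtype, log2 fold change -0.86, adjusted p = 1.02e-06). Among 23 genes for desmosomes, hemidesmosomes and keratin linkers 16 were tested, of which 4 rose and 8 fell in MMP14-KO and 5 rose and 9 fell in Wildtype spheroids at 24 h, where 51.1% of all genes were called in MMP14-KO and 56.5% in Wildtype. ITGB4, which anchors keratin filaments in hemidesmosomes, stood at 234.5 CPM in MMP14-KO spheroids at 24 h against 399.7 CPM in droplets (log2 fold change -0.77, adjusted p = 2.44e-07), and at 214 CPM in Wildtype spheroids at 24 h against 426 CPM in droplets (-0.996, adjusted p = 4.31e-09). Between genotypes, 1 of the 16 tested desmosome, hemidesmosome and linker genes was higher and 6 were lower in MMP14-KO droplets. Over all genes these shares were 7.70% and 9.70%. At 24 h 2 were higher and 4 lower, against 13.7% and 15.7% of all genes. At 48 h 1 was higher and 5 lower, against 14.4% and 15.1%. DSC2, a desmosomal cadherin, ran against most of these calls and was higher in MMP14-KO in all 3 conditions. It stood at 38.3 CPM against 22.7 CPM in Wildtype in droplets. The values were 24.1 CPM against 13.2 CPM in Wildtype at 24 h and 26.0 CPM against 12.5 CPM in Wildtype at 48 h. The largest log2 fold change was 1.05 at 48 h (adjusted p = 7.85e-07). Of 20 transcription factors of keratin-expressing epithelia and hair 13 were tested, and at 24 h 4 rose and 6 fell in MMP14-KO and 3 rose and 7 fell in Wildtype spheroids, beside the same 51.1% and 56.5% of all genes. KLF4, a factor of epithelial differentiation, rose at 24 h by 1.33 in MMP14-KO (adjusted p = 4.27e-12) and by 1.302 in Wildtype spheroids (adjusted p = 3.15e-12), and TP63, the factor of basal epithelium, fell by 1.32 in MMP14-KO (adjusted p = 1.24e-05) and by 2.12 in Wildtype spheroids (adjusted p = 2.21e-08). Of 22 genes of the cornified envelope 12 had no read and 3 were tested. At 24 h 1 rose and 1 fell in MMP14-KO and 0 rose and 1 fell in Wildtype spheroids, beside the same 51.1% and 56.5% of all genes. TGM1 was the gene that rose, from 1.089 CPM in MMP14-KO droplets to 2.369 CPM (log2 fold change 1.13, edgeR adjusted p = 0.000884). FLG, the filaggrin gene, fell at 24 h by 0.81 in MMP14-KO (adjusted p = 0.000263) and by 1.11 in Wildtype spheroids (adjusted p = 2.73e-06). Keratin pseudogene rows held 2.08% to 3.04% of the reads of KRT8 and at most 0.429% of those of KRT18.

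The genes whose log2 CPM ran most like each member over the 18 libraries, of 11541 candidates, were PTPRF (r = 0.993), CCN1 (0.993) and POLR3G (0.992) for KRTAP2-3. They were ACTB (0.990), MMS19 (0.988) and RSU1 (0.983) for KRT80, and CYP1A1 (0.970), EEF1A2 (0.956) and LPCAT4 (0.944) for KRT81. For KRT86 they were TGFB1 (0.965), SIAE (0.962) and FAM234A (0.960), and for KRT7 SBDSP1 (0.982), PEA15 (0.977) and RNF152 (0.976). These points share group and library, so the coefficients describe the pattern over 6 groups. Within the 9 genes KRTAP2-3 ran with KRT7 (r = 0.935) and KRT80 (0.933) and against KRT86 (-0.839), and KRT81 with KRT86 stood at -0.444.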

How the data were processed

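RNA of 18 libraries was measured as 151 bp read pairs of polyA libraries. Per the submitters' notes the authors used RSEM for the expected counts in the deposited table, and the same notes list cutadapt 2.3, FastQC 0.11.8, STAR 2.7.8a, RSEM 1.3.3, MultiQC 1.7 and DESeq2 1.42.0 on GRCh38. Neither annotation release nor strand setting is given in the sources. All deposited values equalled a whole number exactly, which RSEM estimates need not, so they were probably rounded before deposit, in a step not given in the sources; 4 reporter rows without reads were left out. Groups follow the genotype and treatment labels. Counts were fitted with edgeR 4.0.16 (limma 3.58.1, R 4.3.3; filterByExpr, minimum count 10, keeping 17030 genes; TMM; robust quasi-likelihood; 1 coefficient per group, 12 residual degrees of freedom), with Benjamini-Hochberg adjustment over all tested genes in each of 11 contrasts at 0.05. A gene's SE is its log2 fold change over the square root of F. Levels are CPM with TMM factors. The script was tested on simulated counts. DESeq2 1.42.0, other scalings, no filter, summed copies, pseudogenes and left-out replicates were the alternatives. Reference coordinates are GENCODE 29 and promoters RefSeq GRCh38.p14, which held 3 of the 9 genes. The members and gene lists were chosen with earlier results of these data known. All 9 members are named, list genes are the 4 largest called changes with at least 1 CPM, and similar genes need a mean of 5 CPM.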

Additional observations from a re-analysis of the deposited data

Results flagged for a closer look

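The response of KRT80 to 24 h in collagen differed between genotypes, by 0.52 on the log2 scale (adjusted p = 0.00748, test of the interaction in edgeR), with a rise of 1.77 in MMP14-KO and 1.25 in Wildtype spheroids. The response of KRT86 to 24 h in collagen differed by 0.99 (adjusted p = 0.0151), with changes of -0.45 in MMP14-KO and -1.45 in Wildtype spheroids. Of the 2, KRT80 passed in all settings tried, with adjusted p values up to 0.025, while KRT86 did not pass without MMP14-KO 24 h replicate 1 or Wildtype 24 h replicate 3.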

How the results depend on the processing

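No member's direction reversed in a called comparison under any alternative. Of the 7 members other than KRTAP2-3 and KRT34, 2 were called for the 24 h genotype difference in response. That count was 4 with no filter on low counts, 4 with only the groups compared, and 1 to 2 as replicates were left out in turn. The 48 h difference had 0, with 1 under no filter, 1 with near-identical copies added together, 1 under the replicate block and 0 to 1 with replicates left out. The change from 24 h to 48 h had 2 in Wildtype, 4 by DESeq2 and 4 under the replicate block, and 2 to 3 with replicates left out. In MMP14-KO it had 2, with 3 under no filter, 1 with only the groups compared and 1 to 2 with replicates left out. With copies added together it had 1 in MMP14-KO, but there KRT86, 1 of the 2 called genes, has no row of its own. Whether the replicate numbers pair the samples was not settled. Same-numbered libraries deviated together with a mean correlation of 0.024 (-0.095 to 0.228, 6 of 45 pairs over 0.1). For libraries with different numbers the mean was -0.012 (-0.223 to 0.146, 3 of 90 pairs over 0.1). Of 18 libraries, 9 correlated best with their own number. Under the block the droplet comparison of genotypes had 5 members called, as in every fit without 1 droplet library. Over all genes, the block gave 1782 calls for the 24 h genotype difference in response, against 1262 without it. For the 48 h difference it gave 1838, against 1156. Low reads limit KRT34 and KRTAP2-3 in droplets.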
